A study of Macaca radiata with 4 samples.

Results

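Most genes described here encode protein subunits of the cytosolic ribosome or factors that start and extend protein chains on it. They were chosen by name, from the probe sets that the annotation table of the array gives 1 gene symbol: ribosomal proteins of the large subunit (RPL), of its stalk (RPLP) and of the small subunit (RPS), elongation factors (EEF1 and EEF2) and initiation factors (EIF1 to EIF6 families). EIF2AK2 and the RPS6 kinases were left out. The choice gave 83 of 14133 named genes, of which 40 were counted as ribosomal protein genes and 43 as translation factor genes. By name the former take in relatives such as RPL7L1. The latter take in enzymes and partners such as EIF2AK3, the EEF1AKMT genes, EEF1E1 and EIF4ENIF1. They were covered by 163 probe sets, and each gene was read from its brightest one. A probe set was tested if its mean level lay above the 40th percentile of all probe sets, a signal of 90.7. Of the 83 genes 79 lay above that level, and the other 4 were RPL5, RPL3L, RPS19 and EEF1A2. EEF1A1 lay above it but was measured on control probe sets alone, which were kept out of the test, so 78 genes were tested. Ribosomal protein genes that the annotation table does not name are not analysed here.

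The samples were corpora lutea, the progesterone-secreting bodies left after ovulation, from female bonnet monkeys (Macaca radiata), measured on 4 rhesus macaque arrays. All animals were in the luteal phase, at day 7, when they were given 150 µg/kg of CET, which the labels describe as blocking their own luteinizing hormone (LH). An intravenous injection followed after 24 h, either of PBS (0.5 ml, replicates 1 and 2) or of rhLH as LH replacement (20 IU/kg, replicates 3 and 4), and the tissue was taken 8 h later. No group without CET is analysed here, and the labels give 2 monkeys a group without tying arrays to animals, so the p-values measure the spread between these arrays, which may be technical.

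As background, a ribosome is built from ribosomal RNA and one copy of most ribosomal proteins, and the stalk recruits the elongation factors. EIF2 brings the initiator tRNA, EIF3 holds the small subunit complex together, and the EIF4 proteins recognise the cap of the mRNA. The mRNAs of ribosomal proteins and of several elongation factors begin with a tract of pyrimidines through which the mTOR pathway controls their translation. An array measures the amount of these mRNAs and not how they are translated. In the corpus luteum LH acts through cAMP and maintains steroid hormone synthesis.

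PBS replicate 1 stood apart from the other arrays. Across the 31659 kept probe sets its log2 values correlated with the other arrays at Pearson r of 0.75 to 0.78, against 0.94 to 0.95 among the other 3, and its ratio of the 5′ to the 3′ actin control probe set was 0.0890, where the other arrays had 0.629 to 0.672. The 27 probe sets for the hybridisation controls, bacterial and phage transcripts which by the manufacturer's design are added to each sample in fixed amounts, were lower on PBS replicate 1 than on each other array in 27 of 27 cases. All 4 arrays had a trimmed mean signal of 500.0. Differences are therefore given pooled over both PBS arrays and, in pairs of values, for the first and then the second PBS array alone. A fit that leaves out 1 PBS array takes its spread from the 2 rhLH arrays alone, with the lone PBS array assumed to vary like them. The lutein cell marker STAR, whose protein moves cholesterol into mitochondria, had signals of 52570 and 51660 on the rhLH arrays, against 24283 on PBS replicate 1 and 54566 on PBS replicate 2. It does not stand for all such markers. Of the 11 tested, both rhLH arrays lay above both PBS arrays for 6, STAR not among them, and below for 0. All kept probe sets gave 14.4% above and 17.7% below.

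The main result was that ribosomal protein transcripts were at nearly the same level on both rhLH arrays and PBS replicate 2, and lower on PBS replicate 1. Over the 37 ribosomal protein genes above the filter, the median log2 difference of rhLH against PBS was 0.37. Taken against PBS replicate 1 alone it was 0.88, but −0.13 when PBS replicate 2 was the control, so its sign depended on the PBS array. Over all 40 ribosomal protein genes the medians were 0.35, 0.84 and −0.11, and over all kept probe sets they were −0.04, −0.12 and −0.02. Translation factor genes showed a smaller contrast, with a median over 42 genes of 0.22. The first PBS array gave 0.28 and the second 0.09. No single gene passed the limma test at an adjusted p of 0.05 (0 of 78, against 0% of the 31659 kept probe sets), and the adjusted p-values of the 78 genes ran from 0.919 to 0.996. At an unadjusted p under 0.05 limma gave 0 of the 78, against 2.02% of kept probe sets (641).

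**Figure D1:**
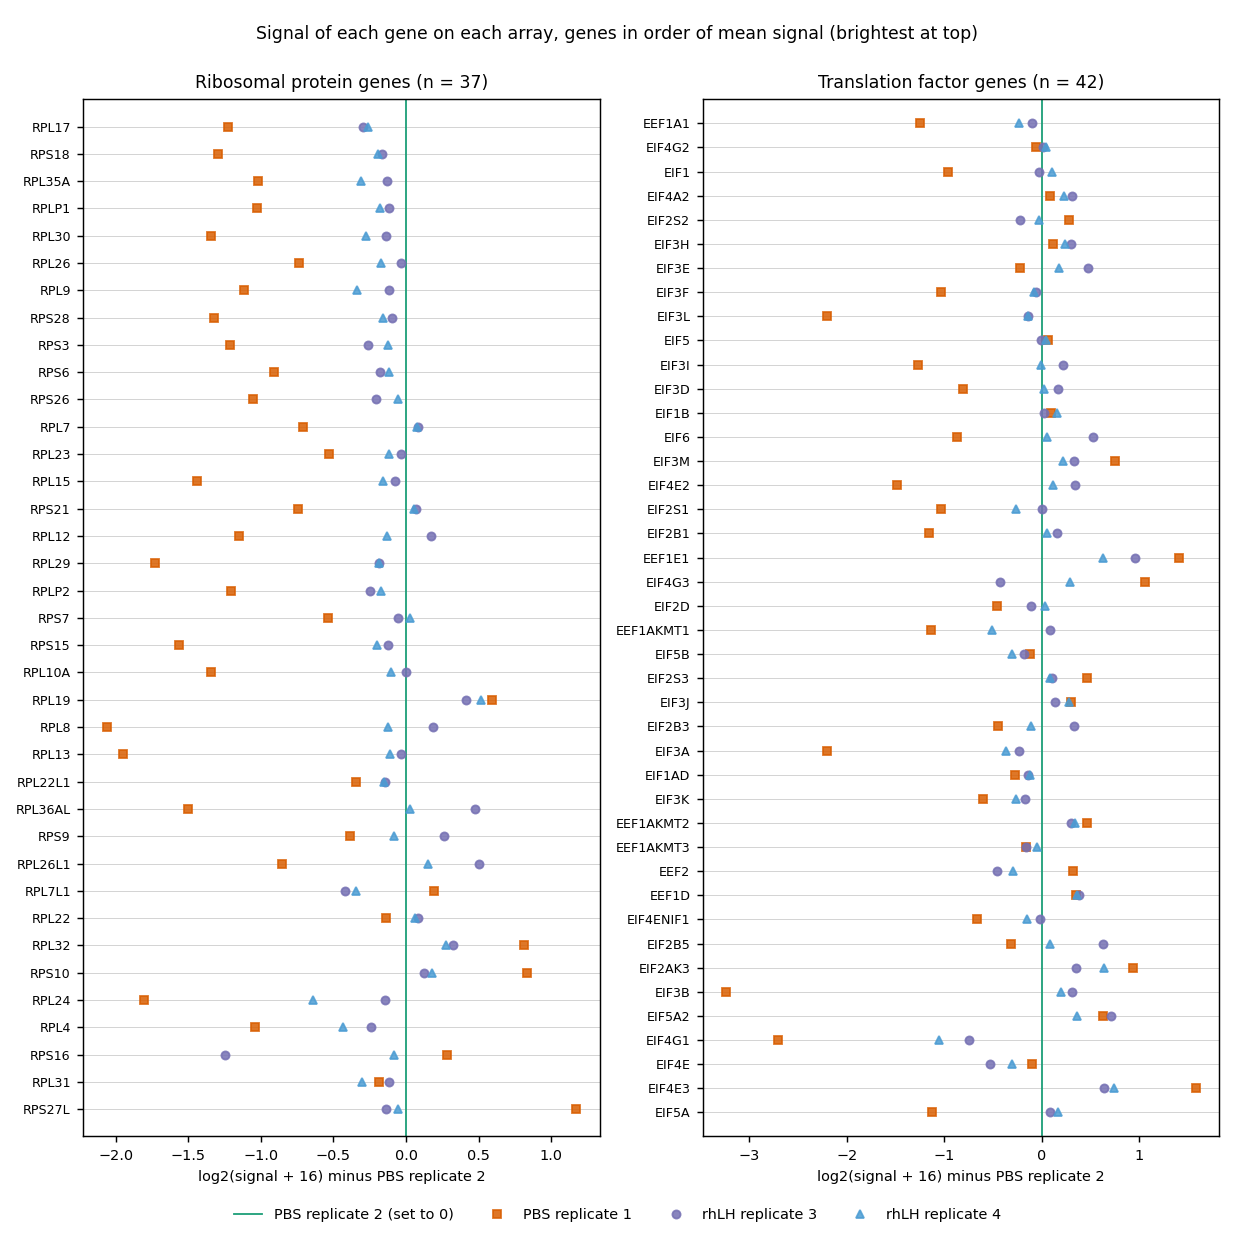
Each row is a gene above the filter and each mark its log2(signal + 16) on 1 array minus that on PBS replicate 2 (vertical line at 0), with 37 ribosomal protein genes on the left and 42 translation factor genes on the right, brightest at the top. The rhLH marks lie near the line for most ribosomal protein genes while PBS replicate 1 lies to the left for 31 of 37.

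The 2 stalk proteins in the set are acidic proteins that form dimers on the large subunit. RPLP1 had signals of 21102 and 43081 on PBS replicates 1 and 2, and rhLH replicates 3 and 4 had 39752 and 38127. RPLP2 had 12880 and 29792 with PBS (in the same order throughout) and 25121 and 26473 with rhLH. For both genes the rhLH arrays lay between the 2 PBS arrays, so the groups overlapped. Their log2 differences were 0.37 (SE 0.49) and 0.40 (SE 0.50), which became −0.15 and −0.21 without PBS replicate 1. Here and below an SE comes from the limma fit, which shares information on variance between probe sets.

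Among the large subunit genes, RPL17 had the brightest probe set, with signals of 23542 and 55135 after PBS and 44850 and 45932 after rhLH. Its pooled log2 difference was 0.33 (SE 0.53), and it was −0.28 against PBS replicate 2 and −0.0021 after quantile normalization. RPL8, a protein next to the peptidyl transferase centre, had 4587 and 19192 with PBS and 21858 and 17570 with rhLH. Its pooled difference of 1.06 (SE 0.69) came from 2.09 against the first PBS array, with 0.03 against the second. In both genes PBS replicate 1 was the low array and the other PBS array lay at or above an rhLH array. The same pattern held for RPL13 (4462 on PBS replicate 1 against 16020 to 17294 on the others) and RPL29 (10052 against 29313 to 33334). RPL19 had the opposite order of PBS arrays, with 16430 on PBS replicate 1, 10897 on PBS replicate 2 and 14497 and 15623 on the rhLH arrays. Its pooled log2 difference was 0.17 (SE 0.38), and −0.13 and 0.47 by PBS array. The latter 2 values each rest on 1 PBS array.

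Both rhLH arrays lay above both PBS arrays for 4 of 23 large subunit genes above the filter (RPL36AL, RPL26L1, RPL7 and RPL22) and below them for RPL7L1. Across all kept probe sets 14.4% lay above and 17.7% below. RPL36AL and RPL26L1 are near-identical relatives of RPL36A and RPL26 encoded by genes of their own. RPL36AL had signals of 3524 and 10005 with PBS and of 13947 and 10203 with rhLH, a log2 difference of 1.00 (SE 0.55), or 1.75 and 0.25 against the first and second PBS array. The upper PBS array and the lower rhLH array differed little, so the separation was narrow. RPL26L1 had 1884 and 3426 with PBS and 4870 and 3814 with rhLH (log2 0.76, SE 0.40, or 1.19 and 0.33 for the first and second PBS array). RPL7 had 17692 and 28910 against 30563 and 30420, and RPL22 had 2461 and 2716 against 2870 and 2833. Their pooled log2 differences were 0.43 (0.78 and 0.08 by PBS array) and 0.14 (0.21 and 0.07). Another RPL22 probe set above the filter lay below both PBS arrays, at 3482 and 2655 with PBS and 2361 and 2301 with rhLH (log2 −0.38). The RPL22 paralog RPL22L1 had 10497 and 13359 with PBS and 12092 and 12041 with rhLH, so its groups overlapped. Its log2 difference was 0.03 (SE 0.34), and −0.21 after quantile normalization.

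RPL7L1, a relative of RPL7 that takes part in making ribosomal RNA, had signals of 3966 and 3464 with PBS and 2584 and 2720 with rhLH. Both rhLH values lay below both PBS values, by a pooled log2 difference of −0.48 (SE 0.30), a 1.40-fold lower level that was similar against each PBS array (−0.58 and −0.38). Its 2 further probe sets above the filter did not share that value, at −0.09 and 1.73. The dimmest large subunit gene was RPL5, which binds 5S ribosomal RNA, with signals between 11.4 and 36.8 on all arrays. The muscle form RPL3L lay between 13.3 and 56.9. Both were below the filter and have no test.

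The small subunit genes repeated the large subunit pattern. RPS18 had the brightest probe set, at 20601 and 50599 with PBS and 45006 and 44216 with rhLH (log2 0.47, SE 0.54, and −0.18 without PBS replicate 1). RPS6, the subunit phosphorylated by the RPS6 kinases, had 18855 and 35503 with PBS and 31372 and 32657 with rhLH, so both rhLH values lay between the PBS values. Its log2 difference was 0.31 (SE 0.46), with 0.76 for the first PBS array and −0.15 for the second, and −0.049 after quantile normalization. Over the 12 small subunit genes above the filter, the medians were 0.35, 0.78 and −0.13 against both, the first and the second PBS array. Over the 23 large subunit genes they were 0.33, 0.89 and −0.10.

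Of those 12 small subunit genes, RPS21 lay above both PBS arrays and RPS16 and RPS27L below. That is 8.33% above and 16.7% below, where all kept probe sets gave 14.4% and 17.7%. RPS21 had 16648 and 27838 with PBS and 29247 and 28880 with rhLH (log2 0.43, SE 0.42), or 0.80 and 0.06 by PBS array. RPS16 had 377 and 307 with PBS and 120 and 290 with rhLH, a log2 difference of −0.80 (SE 0.56) that was −1.39 without rhLH replicate 4 and −0.22 without rhLH replicate 3. These are low signals for 1 probe set of 5, and the other 4 lay below the filter, at log2 differences from −1.67 to 0.89. RPS27L, a relative of RPS27 known as a p53 target, had 352 and 147 with PBS and 132 and 141 with rhLH. Its difference of −0.68 (SE 0.60) shrank to −0.10 without PBS replicate 1. RPS19, mutated in Diamond-Blackfan anaemia, had signals of 32.7 to 36.8 on all 4 arrays, below the filter.

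Over kept probe sets outside the family, the median difference of rhLH from PBS replicate 1 went with the level of the probe set. A signal depends on the probes as well as on the transcript, so levels serve here only to sort probe sets. Of the 25 ribosomal protein genes with mean signals over 10000, PBS replicate 1 was the lowest array for 24, and their median log2 difference of rhLH was 0.95 from that array and −0.13 from PBS replicate 2. The other 527 probe sets in that range had medians of 0.70 and −0.06, and PBS replicate 1 was the lowest array for 80.1% of them. The 5 translation factor genes in that range had lower differences from that array. Their medians were 0.18 and 0.03, and PBS replicate 1 was the lowest array for 3. The hybridisation controls had medians of 0.73 and −0.14. For the 12 ribosomal protein genes above the filter with mean signals under 10000, PBS replicate 1 stood at a median of −0.16 relative to PBS replicate 2, and the rhLH arrays at −0.02 and −0.07. Over all kept probe sets PBS replicate 1 was the lowest of the 4 arrays in 35.7%, compared with 30 of 37 ribosomal protein genes above the filter and 24 of 42 factor genes. The part of the array's level-dependent signal in the ribosomal protein result was not tested. Quantile normalization gives all arrays 1 distribution and so draws bright probe sets together whatever the cause, and it cannot decide this. After it the median over the 25 bright genes was 0.11, or 0.18 and −0.03 for the first and second PBS array. Over the other 527 probe sets of that level it was 0.07, and over all 37 ribosomal protein genes 0.11.

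**Figure D2:**
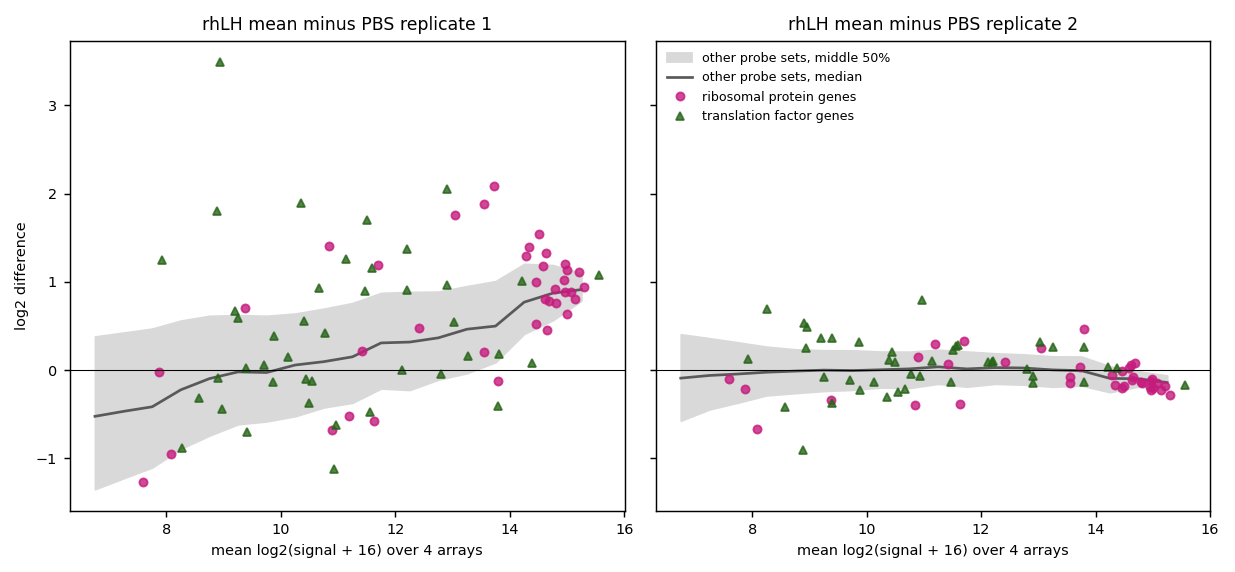
The x axis is the mean log2(signal + 16) of a probe set over 4 arrays and the y axis the log2 difference of the rhLH mean from PBS replicate 1 (left) or PBS replicate 2 (right). Grey shows the median and middle 50% of other kept probe sets in steps of level, circles ribosomal protein genes and triangles translation factor genes; the grey median climbs from −0.52 to 0.91 on the left and stays between −0.14 and 0.04 on the right.

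**Figure D3:**
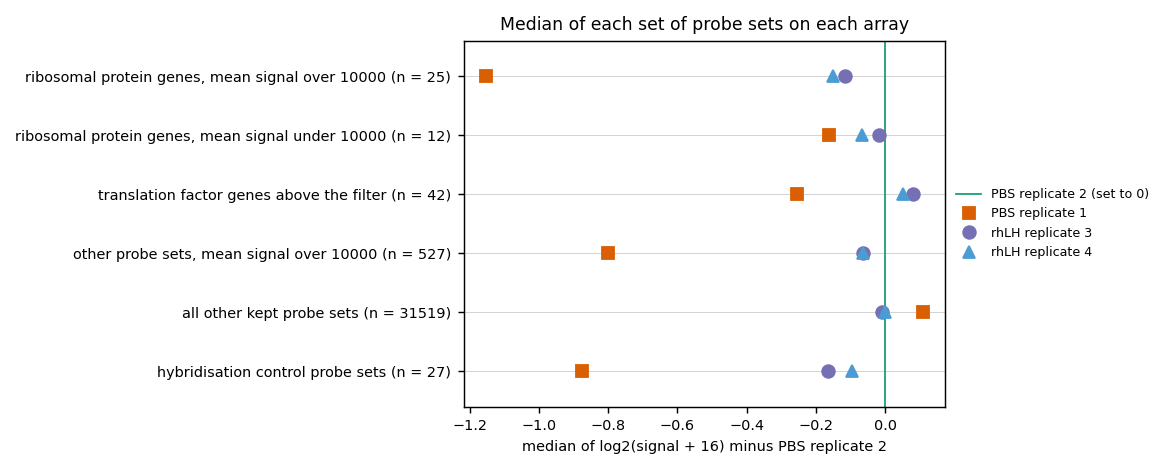
Marks give, for 6 sets of probe sets, the median log2(signal + 16) on each array minus PBS replicate 2 (vertical line at 0). PBS replicate 1 lies at −1.15 for the 25 bright ribosomal protein genes, at −0.80 for other probe sets of that level and at −0.87 for the hybridisation controls, and at 0.11 for all other kept probe sets.

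With PBS replicate 2 as the only control, both rhLH arrays lay below it for 24 of the 37 ribosomal protein genes (64.9%) and above it for 8 (21.6%), where all kept probe sets gave 34.9% below and 33.9% above. For the 42 factor genes the counts were 14 below and 21 above. The sizes were small: over the 37 ribosomal protein genes the median absolute difference between the rhLH mean and PBS replicate 2 was 0.15, against 0.09 between the 2 rhLH arrays. Of the 25 bright genes 18 lay below PBS replicate 2 on both rhLH arrays, compared with 48.2% of other probe sets in that range, and after quantile normalization 11 did, compared with 31.1%. Over the 79 genes above the filter, log2 differences from PBS replicate 2 ran from −0.90 (EIF4G1) to 0.79 (EEF1E1). With PBS replicate 1 as the only control, both rhLH arrays lay above it for 30 of the 37 ribosomal protein genes and 27 of the 42 factor genes, where all kept probe sets gave 39.4%. The limma fit without PBS replicate 2 called 37 of the 78 genes, 36 of them higher with rhLH and 24 of those ribosomal, where it called 25.4% of all kept probe sets.

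EEF1A1, which delivers aminoacyl-tRNA to the ribosome, had the brightest probe set of all factors. Its middle control probe set had signals of 26850 and 63760 with PBS and of 59268 and 54254 with rhLH. Both rhLH values lay between the PBS values, at log2 differences of 1.08 from the lower and −0.17 from the upper (pooled 0.45, adjusted p = 0.919 when the limma fit took in the control probe sets, an alternative chosen after seeing the data). The 5′ to 3′ ratio of its probe sets was 0.943 on PBS replicate 1, where the other arrays had 1.05 to 1.13, closer together than for actin. The neuronal and muscle form EEF1A2 had signals of 112 and 59.2 with PBS and 111 and 31.9 with rhLH, below the filter.

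EEF2, which moves the ribosome along the mRNA, was lower on both rhLH arrays. Its signals were 894 and 713 with PBS and 515 and 577 with rhLH, a 1.45-fold lower level (log2 −0.54, SE 0.36, or −0.70 and −0.38 for the first and second PBS array). The direction was the same against each PBS array, and rhLH replicate 3 minus replicate 4 came to −0.16. EEF1D, a subunit of the factor that recharges EEF1A, lay slightly above both PBS arrays (694 and 541 against 707 and 700.5, log2 0.19, SE 0.36, or 0.02 and 0.37 by PBS array). EEF1E1, which belongs to the complex of tRNA synthetases, had 3150 and 1177 with PBS and 2301 and 1820 with rhLH. Its groups overlapped, and its pooled log2 difference of 0.09 (SE 0.52) joined opposite values of −0.62 and 0.79 by PBS array. The 3 methyltransferases EEF1AKMT1, EEF1AKMT2 and EEF1AKMT3, which modify EEF1A, had pooled log2 differences of 0.36, 0.09 and −0.03.

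Of the 13 genes for start codon choice and the ternary complex of EIF2, GTP and initiator tRNA, EIF2B1 and EIF2B5 lay above both PBS arrays and EIF2S2 and EIF5B below. These shares of 15.4% above and 15.4% below were near the 14.4% and 17.7% of all kept probe sets. EIF2B is the exchange factor that reactivates EIF2. EIF2B5, its catalytic subunit, had 426 and 533 with PBS and 833 and 567 with rhLH (log2 0.51, SE 0.40, or 0.67 and 0.36 for the first and second PBS array). It was 0.24 without rhLH replicate 3 and 0.79 without rhLH replicate 4. EIF2B1 had 1180 and 2650 with PBS and 2943 and 2752 with rhLH, and its pooled 0.68 (SE 0.45) became 0.10 without PBS replicate 1. Its further probe set had overlapping groups, at 354 and 1488 with PBS and 1518 and 1349 with rhLH (log2 0.96, or 1.97 and −0.06). EIF2B3 (log2 0.34, or 0.56 and 0.11) had overlapping groups. EIF2S1, the alpha subunit that stress kinases phosphorylate, had 1730 and 3550 with PBS and 3544 and 2951 with rhLH, a pooled log2 difference of 0.38 (SE 0.43), or 0.90 and −0.13, and 0.25 without rhLH replicate 3. EIF2S2, the beta subunit, had 17179 and 14138 against 12076 and 13814 (log2 −0.27, SE 0.35, or −0.41 and −0.13, and −0.17 without rhLH replicate 3), but its 4 further probe sets ranged from −2.07 to 0.20.

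EIF1, which guards start codon choice, had 11276 and 22036 with PBS and 21640 and 23745 with rhLH (log2 0.52, SE 0.45, and 0.04 without PBS replicate 1). EIF5B, which joins the subunits, lay below both PBS arrays by a small margin (1509 and 1642 against 1446 and 1321, log2 −0.19, SE 0.31) and moved to 0.042 when arrays were centred on their medians and to −0.12 without rhLH replicate 4. Its 3 further probe sets above the filter were on the other side of 0 (0.26, 0.82 and 0.06), and the mean over its probe sets was 0.24. EIF2AK3, the EIF2 kinase of the endoplasmic reticulum, had 669 and 342 with PBS and 440 and 540 with rhLH, between the PBS values, at a log2 difference of 0.02 (SE 0.46, or −0.44 and 0.49).

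EIF3 is the largest initiation factor complex. Both rhLH arrays lay above both PBS arrays for 4 of its 11 genes (36.4%) and below for 0, beside the 14.4% and 17.7% of all kept probe sets. EIF3B, the scaffold subunit, had signals of 67.1 on PBS replicate 1 and 767 on PBS replicate 2, and of 955 and 883 with rhLH. Its pooled log2 difference of 1.87 (SE 1.01) came mostly from PBS replicate 1, where the signal was below the filter level (3.49), and was 0.25 for the other PBS array. EIF3E had 6617 and 7757 with PBS and 10737 and 8751 with rhLH (log2 0.44, SE 0.33, or 0.55 and 0.32, and 0.29 without rhLH replicate 3). EIF3D, which can bind the cap of some mRNAs, had 2963 and 5201 against 5838 and 5285 (log2 0.50, SE 0.38, or 0.90 and 0.09). EIF3H had 9466 and 8778 against 10761 and 10339 (log2 0.21, SE 0.32, or 0.16 and 0.26), which became −0.015 after quantile normalization. The further probe sets of EIF3D (0.57 and 0.28), EIF3E (0.37) and EIF3H (0.24) had positive pooled differences as well, but against PBS replicate 2 those of EIF3D and EIF3H were negative (−0.04, −0.21 and −0.18). The family median was 0.45 over 11 genes, with 0.90 for the first PBS array and 0.10 for the second. EIF3L had 2540 on PBS replicate 1 and 11738, 10603 and 10604 on the other 3.

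Among the 8 EIF4 genes, which act at the cap or with its binding proteins, EIF4E, the cap-binding protein itself, was lower on both rhLH arrays, and its relative EIF4E2 was higher. EIF4E had 402 and 432 with PBS and 293 and 346 with rhLH, a 1.29-fold lower level (log2 −0.37, SE 0.40) that was similar against each PBS array (−0.32 and −0.42). EIF4E2, which binds the cap but represses translation, had 1227 and 3460 with PBS and 4369 and 3738 with rhLH (log2 0.97, SE 0.53), most of it from PBS replicate 1 (1.71 against 0.22 for PBS replicate 2). EIF4E3, another relative, had 534 and 168 with PBS and 271 and 292 with rhLH, with the rhLH arrays between the PBS arrays. Its pooled log2 difference was −0.10 (SE 0.62), but 0.69 without PBS replicate 1, 0.0047 after quantile normalization and 0.13 with centred arrays.

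The EIF4G scaffolds differed from each other in how the arrays were ordered. EIF4G1 had 142 on PBS replicate 1, 1013 on PBS replicate 2 and 597 and 479 on the rhLH arrays. It was thus lower than PBS replicate 2 on both rhLH arrays (log2 −0.90) and higher than PBS replicate 1 (1.80), which pooled to 0.45 (SE 0.88), or 0.29 without rhLH replicate 3. The −0.90 and the 1.80 again each rest on 1 PBS array. EIF4G2, which works without cap binding, hardly varied, with 20470 and 21302 against 21448 and 21997 (log2 0.06, SE 0.36, or 0.09 and 0.03), and moved to −0.29 after quantile normalization. EIF4G3 had 3445 and 1650 against 1218 and 2023 (log2 −0.60, SE 0.48), with overlapping groups. That value was −1.13 and −0.07 by PBS array, −0.24 without rhLH replicate 3 and −0.96 without rhLH replicate 4, and its 2 further probe sets above the filter had −0.27 and 0.87. EIF4A2, an RNA helicase, had 13618 and 12833 against 15844 and 15043 (log2 0.22, SE 0.34, or 0.18 and 0.27), which became −0.053 after quantile normalization. The binding partner EIF4ENIF1 had a log2 difference of 0.25, or 0.59 and −0.08.

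EIF5A, which helps ribosomes through stalling sequences, had 113 and 266 with PBS and 282 and 300 with rhLH (log2 0.69, SE 0.56, and 0.12 without PBS replicate 1). Its paralog EIF5A2 had 535 and 342 against 571 and 444, with overlapping groups (log2 0.23, SE 0.43, or −0.09 and 0.54, and 0.049 without rhLH replicate 3). EIF6, which keeps the large subunit from joining too early and takes part in its assembly, had 1774 and 3249 with PBS and 4666 and 3373 with rhLH. Both rhLH values lay above both PBS values, by 0.72 (SE 0.41), made up of 1.15 and 0.29.

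In all, both rhLH arrays lay above both PBS arrays for 5 of 37 ribosomal protein genes and 12 of 42 factor genes above the filter, and below them for 3 and 4. The shares of 13.5% and 28.6% above, and of 8.11% and 9.52% below, stand beside 14.4% and 17.7% of all kept probe sets. Centring the arrays on their medians shifted all kept probe sets from −0.04 to 0.19 in the median and gave 6 above and 2 below for ribosomal protein genes and 20 and 1 for factor genes. Genes were picked for naming partly because their groups did not overlap, so that separation supports nothing by itself.

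**Figure D4:**
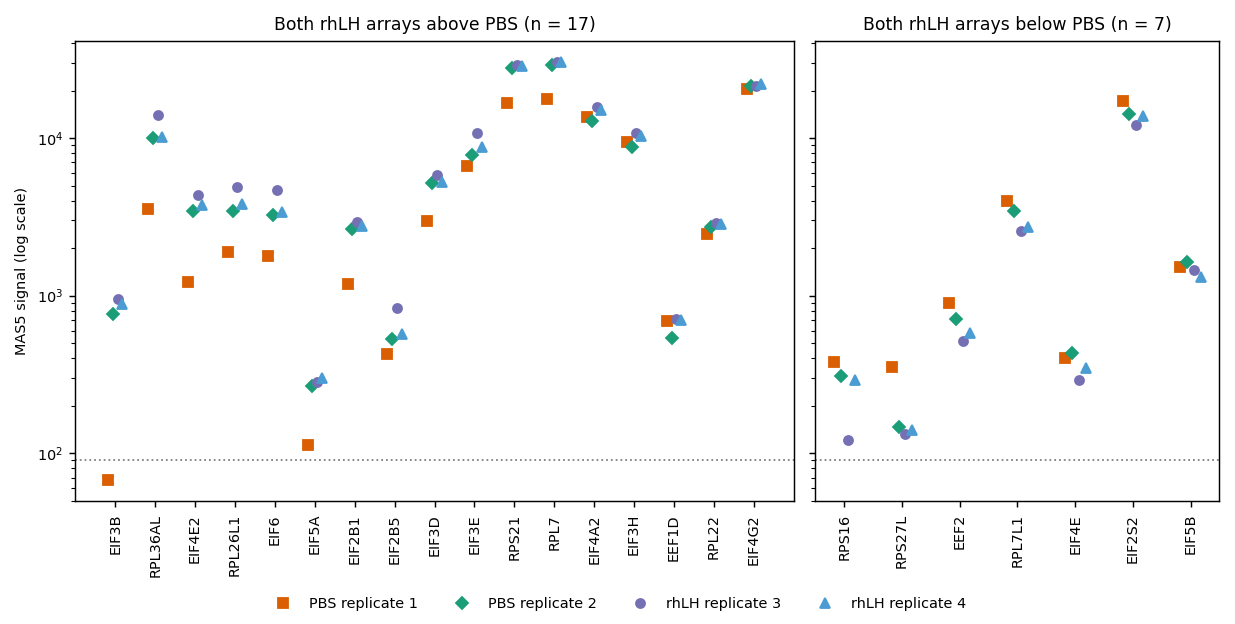
Signals on a log scale for the 17 genes whose rhLH arrays both lay above both PBS arrays (left, by size of difference) and the 7 below (right), with 1 mark per array and a dotted line at the filter level of 90.7. On the left PBS replicate 1 is far below the other arrays for genes such as EIF3B and RPL36AL, and on the right both PBS arrays lie close together for EIF4E and RPL7L1.

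Different probe sets of 1 gene often disagreed. For 36 genes more than 1 probe set lay above the filter, and for 17 of these all of them had the same sign of the pooled difference. EEF1A1 (0.35 to 0.57 over 4 probe sets) and EIF3I (0.74 on both) were close, whereas EIF3F (−1.07 and 0.45), RPL30 (−0.72 and 0.46) and RPS28 (−0.57 and 0.54) had opposite signs. Their negative probe sets were dim, with signals of 115 to 291, 87.5 to 166 and 127 to 341 in that order. The brightest probe sets of these genes had 4567 to 9394, 17599 to 44598 and 16772 to 42048. The brightest probe set carried a name ending that marks shared or mixed targets for 13 of the 40 ribosomal protein genes and 5 of the 43 factor genes. Ribosomal protein genes have many processed pseudogenes, so signal from near-identical copies cannot be told apart from that of the gene.

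**Figure D5:**
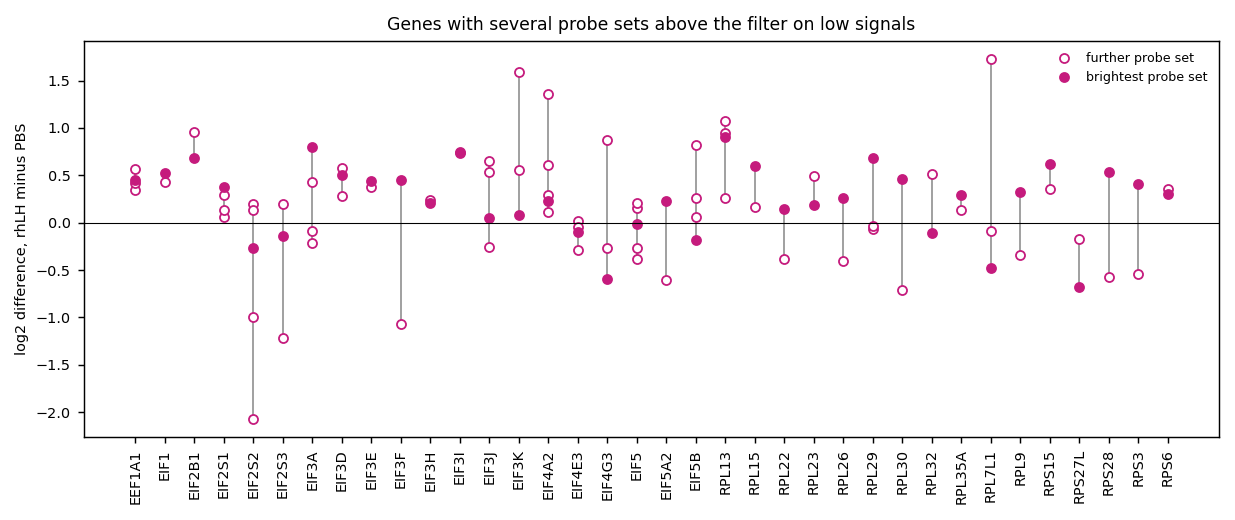
Log2 differences of rhLH minus PBS for every probe set above the filter of the 36 genes that have more than 1, with the brightest filled and the others open. The 19 genes whose probe sets do not share a sign cross the line at 0.

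Other genes of protein synthesis were described from 7 lists, 1 probe set a gene, in which limma called 0 genes. Ribosome biogenesis and RNA polymerase I genes lay above both PBS arrays for 17 of 49 (34.7%) and below for 0, with medians of 0.39 pooled, 0.41 for the first PBS array and 0.15 for the second (the order used for each list). NOP16, a nucleolar protein, had 702 and 917 with PBS and 1595 and 1432 with rhLH. Its log2 difference of 0.90 was made up of 1.09 and 0.71. TSR1, a small subunit assembly factor, had 341 and 559 against 999 and 568 (log2 0.77, or 1.11 and 0.42). Cytosolic aminoacyl-tRNA synthetase genes lay above for 7 of 13 (53.8%) and below for 0 (medians 0.44, 0.85 and 0.28), and YARS1, the tyrosyl-tRNA synthetase, had 1622 and 2454 against 3965 and 3184 (log2 0.83, or 1.12 and 0.53). AIMP2, a scaffold of the synthetase complex, had 1577 and 2474 against 3197 and 3277 (log2 0.71, or 1.03 and 0.39). The groups did not overlap in these 4 genes, as the rule for naming them required. Mitochondrial ribosomal protein genes lay above for 23 of 62 (37.1%) and below for 2 (medians 0.44, 0.78 and 0.04). MRPL18 had 1421 and 1836 with PBS and 3248 and 3020 with rhLH (log2 0.95, or 1.13 and 0.77), and MRPL23 had 894 and 3346 against 4531 and 3563 (log2 1.21, or 2.15 and 0.26). The 2 below were MRPL30 (1124 and 2862 against 744 and 597, log2 −1.41, or −0.74 and −2.08) and MRPS6 (223 and 123 against 48.8 and 93.2, log2 −1.12, or −1.51 and −0.73). For comparison with these 3 lists, all kept probe sets gave 14.4% above both PBS arrays and 17.7% below. Probe sets outside the family gave 12.7% above at mean signals under 1000 and 19.6% at 1000 to 10000.

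The remaining 4 lists, in the order given here, had 5.41%, 9.09%, 0% and 25% of genes above both PBS arrays. Those below were 13.5%, 18.2%, 15.4% and 0%. All kept probe sets gave 14.4% above and 17.7% below. Genes of the mTOR pathway and of translational control lay above for 2 of 37 and below for 5, with medians of 0.07, 0.23 and −0.11, and MTOR itself had overlapping groups, with 738 and 1434 with PBS and 1154 and 1170 with rhLH. Above PBS were LAMTOR1 and LAMTOR5 (log2 0.56 and 0.46, and 0.12 and 0.19 against PBS replicate 2), subunits of the complex that anchors mTOR regulators to lysosomes. Below it by size came RICTOR, a subunit of mTOR complex 2 (3191 and 1499 against 1213 and 1342, log2 −0.77, or −1.31 and −0.23), and the kinase subunit PIK3CB (log2 −0.54, or −0.70 and −0.38). Termination, recycling and quality control factors lay above for 1 of 11 (DRG1, log2 0.44, or 0.59 and 0.28) and below for 2 (RNF14, −0.36, or −0.42 and −0.31, and GCN1, −0.21, or −0.13 and −0.28). Genes of the integrated stress response, which is switched on when EIF2 is phosphorylated, lay above for 0 of 13 and below for 2. These were VLDLR, a lipoprotein receptor (1207 and 677 against 345 and 508, log2 −1.08, or −1.49 and −0.67), and PHGDH, an enzyme of serine synthesis (1045 and 879 against 447 and 560, log2 −0.92, or −1.04 and −0.79). The 8 other mRNAs with a pyrimidine tract lay above for 2, PFDN5 (log2 0.76, or 1.17 and 0.34) and NACA (0.28, or 0.46 and 0.11), and below for 0, with medians of 0.40, 0.92 and 0.04. Among them RACK1, a protein of the small subunit, had 15431 and 40374 with PBS and 35625 and 34054 with rhLH, and FAU, which encodes a small subunit protein as a fusion, had 6435 and 24225 against 21749 and 21111.

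The summed signals of most cell type marker lists were lowest on PBS replicate 1, with single markers that went the other way. Of all kept probe sets 14.4% lay above both PBS arrays and 17.7% below. The shares above were 54.5% for lutein cell, 11.1% for leukocyte, 0% for fibroblast, 18.2% for endothelial, 20% for pericyte and 50% for erythroid markers. Those below were, in that order, 0%, 11.1%, 14.3%, 9.09%, 0% and 0%. Lutein cell markers lay above both PBS arrays for 6 of 11 and below for 0 (medians 0.79, 1.56 and 0.25), none was at 0 on any array, and their summed signals were 91426 and 183267 with PBS and 184017 and 199604 with rhLH. Leukocyte markers, 1 of 9 above and 1 below, had summed signals of 13713 and 43920 with PBS and 35358 and 32311 with rhLH. LYZ (6121 and 28435 against 13206 and 12488) and GZMB (4481 and 10891 against 15764 and 16051) made up most of that sum, whereas PTPRC, which marks all leukocytes, had 628 and 356 against 733 and 234. Fibroblast markers, 0 of 7 above and 1 below, had 33104 and 64362 against 55296 and 61669, and the endothelial markers, 2 of 11 above and 1 below, 22248 and 28858 against 25277 and 29506. COL3A1 and LUM among the former and PECAM1, TEK and ROBO4 among the latter were highest on PBS replicate 1. Pericyte and smooth muscle markers lay above for 1 of 5 and below for 0, with 6248 and 10381 against 10934 and 11034. The erythroid markers, 1 of 2 above and 0 below, had 1155 and 936 against 1005 and 1243, so PBS replicate 1 was not their lowest array. The only theca marker matched, CYP17A1, had overlapping groups. The part of cell composition in the ribosomal protein values was not tested, and in whole tissue fewer cells of a type and less RNA per cell cannot be told apart.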

How the data were processed

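The authors deposited 1 linear intensity per probe set and array, made with MAS5 per the submitters' processing notes. The sources used here state no scaling target and give no detection calls, but the 2% trimmed mean was 500.0 on each of the 4 arrays. Signals were analysed as log2(signal + 16) with no further normalization, since the 2% trimmed means were equal. The distributions still differed. PBS replicate 1 had a median signal of 186, where the other arrays had 136 to 139.5. Its 99th percentile was 8886 against 12091 to 12459, and its maximum 32179 against 62826 to 72865. Of 52865 probe sets 99 controls were set aside, and the 31659 with a mean above the 40th percentile entered a limma fit (version 3.58.1, R 4.3.3, lmFit and eBayes with trend, two-sided, Benjamini-Hochberg adjustment over all of them, threshold 0.05). Each SE is that of the limma fit, in which eBayes draws a gene's variance towards a trend over all kept probe sets. It is thus not the spread of that gene's own arrays alone. The number of 2 arrays a group limits the precision. Groups came from the sample titles. Of 52766 probe sets 24956 had 1 symbol, 361 several and 27449 none in the annotation table, which can be old. Members and lists were chosen with earlier results of these data known. Named genes were, per role, up to 4 above and 4 below both PBS arrays by size of difference, the brightest and dimmest gene, paralog pairs and a panel of 12 (those present); genes outside this rule (RPL13, RPL29, RPL19, RPL3L, EEF1E1, the EEF1AKMT genes, EIF2B3, EIF3L, EIF3I, EIF3F, EIF4ENIF1, RPL30, RPS28, and MTOR, RACK1, FAU and STAR outside the family) were chosen after their values were seen. Alternatives covered scaling, pseudocount, filter, choice of probe set, variance prior and leaving out each array. No sequence was given for this series, so none is printed.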

Additional observations from a re-analysis of the deposited data

How the results depend on the processing

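No paired analysis was possible because the groups share no replicate numbers. The number of probe sets called was 0 under all scalings, pseudocounts, filters and variance priors and ran from 0 to 8027 when 1 array was left out, the latter without PBS replicate 2. Without 1 array the ribosomal protein median ran from −0.13 (without PBS replicate 1) to 0.88, with 6 to 30 genes above and 3 to 24 below PBS, the factor median from 0.09 to 0.28, with 15 to 27 above and 4 to 14 below, and probe sets whose groups do not overlap, 10181 of 31659 in all, from 16415 to 27587, since fewer arrays have to separate. That number was 17334 with no filter and 5064 with a filter at the 70th percentile, which change how many probe sets are counted, and the latter left 1 ribosomal gene below. Centring gave factor genes a median of 0.44, with 20 above and 1 below. The mean of all probe sets of a gene left 1 ribosomal and 2 factor genes below. Of 42 named genes, 7 turned sign under quantile normalization (EIF3H −0.015, EIF4A2 −0.053, EIF4G2 −0.29, RPL17 −0.0021, RPL22L1 −0.21, RPS6 −0.049 and EIF4E3 0.0047), 2 under centring (EIF4E3 0.13, EIF5B 0.042) and 6 with the mean of probe sets (EIF4G2 −0.23, EIF4G3 0.0031, EIF5A2 −0.12, EIF5B 0.24, RPL22 −0.16 and RPL7L1 0.54). The cause was not tested. When 1 array was left out, values that turned sign ran from −0.17 to 1.08 for EEF1A1, −1.03 to 0.38 for EEF1A2, −0.44 to 0.49 for EIF2AK3, −0.13 to 0.90 for EIF2S1, −0.89 to 0.69 for EIF4E3, −0.90 to 1.80 for EIF4G1, −0.086 to 0.54 for EIF5A2, −0.28 to 0.95 for RPL17, −0.15 to 0.20 for RPL22L1, −0.26 to 0.69 for RPL5, −0.15 to 0.88 for RPLP1, −0.21 to 1.00 for RPLP2, −0.18 to 1.11 for RPS18, −0.027 to 0.090 for RPS19 and −0.15 to 0.76 for RPS6. The rest of these 42 genes kept their direction without any 1 array. Among genes listed as outside that rule, RPL13, RPL29, RPL19, RPL3L, RPL30, RPS28, EIF3F, EIF3L and EIF4ENIF1 had opposite signs against the 2 PBS arrays. So did EEF1E1, EEF1AKMT1, EEF1AKMT2, EEF1AKMT3, MTOR, RACK1, FAU and STAR, while EIF2B3 and EIF3I were positive against each. RPL5, RPS19 and EEF1A2 had signals near or below the filter level, where direction is least certain.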
